A study of Ovis aries with 115 samples.

Results

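CLGN (ENSOARG00000012717, calmegin) and LMAN1L (ENSOARG00000003153, lectin, mannose binding 1 like) are 2 of the 27054 genes counted in the sheep cervix. Both were chosen from the study's contrast of Belclare with Suffolk ewes whose cycle was synchronised and which were follicular at death, where they stood among the genes most raised in Belclare. Values of that contrast are therefore given here as a description, with no test. Tests were kept to ewes that the choice did not use, namely the natural follicular phase, the synchronised luteal phase, and the Fur and Norwegian White Sheep (NWS) ewes of every state.

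Secretory and membrane proteins fold in the endoplasmic reticulum (ER) with the help of chaperones that bind their sugar chains, and cargo receptors then load them into vesicles bound for the Golgi. Calmegin is a relative of the ER chaperone calnexin, best known from developing sperm, where it is needed to fold ADAM proteins of the sperm surface. LMAN1L is a relative of LMAN1 (ERGIC-53), an L-type lectin that carries glycoproteins from the ER to the Golgi, whereas no cargo of LMAN1L itself is assumed here. In the RefSeq annotation of another sheep assembly, ARS-UI_Ramb_v3.0, CLGN lies between MGAT4D and SCOC, and LMAN1L between CPLX3 and CSK. Their coordinates on Oar_v3.1, the assembly behind the counts, were not used here.

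Messenger RNA of the cervix was sequenced after death, 1 library per ewe. The study describes its synchronised follicular ewes as multiparous and aged 4 to 5 years. Belclare and Suffolk ewes were kept in Ireland, and Fur and NWS ewes in Norway. Suffolk has low fertility after cervical insemination with frozen-thawed semen, Belclare is intermediate and both Norwegian breeds are high. Numbers of ewes are given in the order Belclare, Fur, NWS and Suffolk. They were 10, 8, 10 and 11 for follicular ewes with a synchronised cycle, 10, 10, 10 and 8 for follicular ewes with a natural cycle, and 10, 9, 8 and 10 for luteal ewes with a synchronised cycle. Synchronised follicular ewes had worn a progestagen sponge and received equine chorionic gonadotropin at its removal. The handling of the natural ewes is not described in the study's methods. Because each breed came from 1 country, a difference between an Irish and a Norwegian breed cannot be told apart from a difference between countries. The study's methods, written for the synchronised follicular ewes, place the tissue in the middle of the cervix outside its folds, so it held several cell types. In such bulk RNA, fewer cells of a type and less RNA per cell cannot be told apart.

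Total counts ranged from 12238996 to 31261671 per ewe over the 114 ewes used. CLGN had 1 to 834 counts and LMAN1L 3 to 4256 counts per ewe. In 2 ewes CLGN, and in 1 ewe LMAN1L, did not exceed 3 counts, the level treated here as the limit of detection (0.173 CPM on average). No ewe had a count of 0 for either gene. Levels are given as CPM, counts per unit of library size, with library sizes scaled by the trimmed mean of M-values (TMM). No gene lengths were used here, so levels are compared between ewes and not between the genes. The library kit marked strand, but whether the counting used it is not given in the sources used here, so reads of an overlapping antisense transcript could be included.

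In the synchronised follicular phase, where the genes were chosen, CLGN in Suffolk ranged from 0.0776 to 1.19 CPM with a median of 0.744 CPM (n = 11). In Belclare it ranged from 0.623 to 7.90 CPM with a median of 1.98 CPM (n = 10). Of the 10 Belclare ewes, 8 lay above every Suffolk ewe. The log2 fold change of Belclare against Suffolk was 1.73 (SE 0.39), from means of 2.55 and 0.757 CPM. Over all genes this contrast called 1 of 14811 (0.00675%) with edgeR. That count is background and no test of CLGN or LMAN1L, which were chosen from these same ewes. Belclare replicate 2, the highest ewe for CLGN, also had the highest ACTG2 level of its group (5752 CPM), the smooth muscle actin. Without that ewe the log2 fold change of CLGN was 1.36 (SE 0.33).

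LMAN1L in the same Suffolk ewes ranged from 1.47 to 24.9 CPM with a median of 11.5 CPM. In Belclare it ranged from 13.5 to 74.3 CPM with a median of 35.7 CPM, and 7 of 10 ewes lay above every Suffolk ewe. The log2 fold change was 1.66 (SE 0.39), or 1.76 (SE 0.38) without Belclare replicate 2. The Norwegian ewes of this state are set beside the same Suffolk ewes, whose low levels entered the choice of both genes. Their values are therefore a description as well. CLGN had a mean of 5.15 ± 2.54 CPM in Fur (SD, n = 8) and 3.98 ± 2.02 CPM in NWS (SD, n = 10), with 7 of 8 Fur and 9 of 10 NWS ewes above every Suffolk ewe. LMAN1L had 25.7 ± 16.3 CPM in Fur and 13.7 ± 8.81 CPM in NWS, against 12.2 ± 6.60 CPM in Suffolk, and only 3 Fur and 2 NWS ewes lay above every Suffolk ewe. For Belclare, Fur and NWS alike, the share of all genes with as many ewes above every Suffolk ewe was not counted. NWS replicate 9 held 0.191 CPM of LMAN1L (3 counts), beside a next lowest ewe at 5.74 CPM.

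Across the other states CLGN was high in the Norwegian breeds and low in Suffolk, whereas LMAN1L did not separate the breeds. A comparison passed the test when edgeR's quasi-likelihood test gave a Benjamini-Hochberg adjusted p below 0.05 over 14811 genes and a fold change above 1.5. CLGN passed in 7 of 17 comparisons, 6 of them among the 8 between an Irish and a Norwegian breed. LMAN1L passed in 0 of 17, with 3 at an unadjusted p below 0.05, and DESeq2's likelihood ratio test called it in 1. Many of these comparisons share ewes, so they are not independent of each other.

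**Figure D1:**
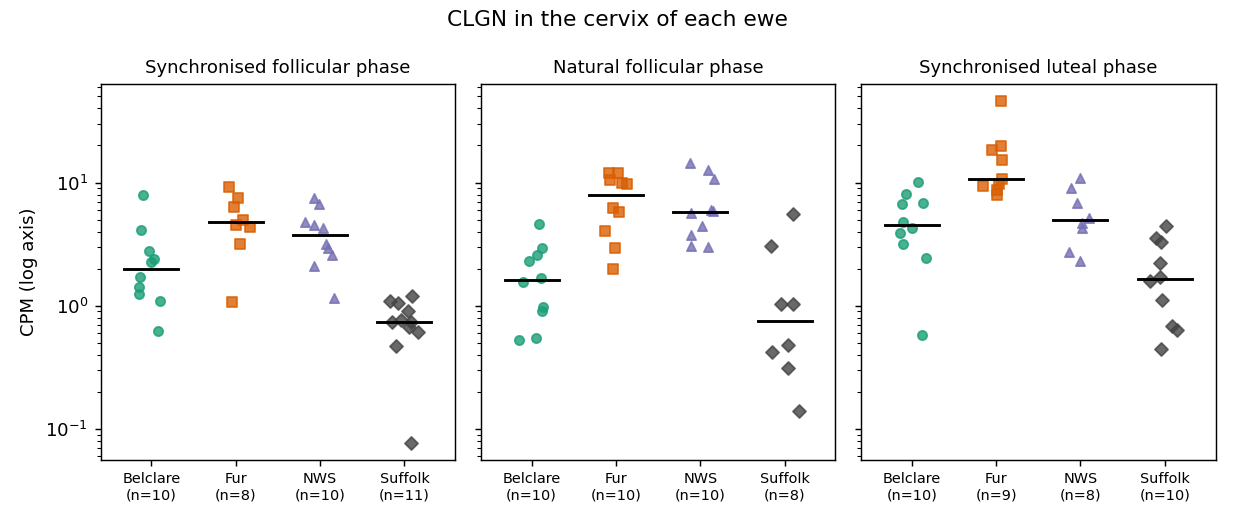
CLGN level of each ewe in CPM (log axis) by breed, in the synchronised follicular, natural follicular and synchronised luteal phases. Points are ewes and bars are medians. The order of the medians was Fur, NWS, Belclare, Suffolk in the natural follicular and luteal phases. It was the same in the synchronised follicular phase, where Belclare above Suffolk was fixed by the choice of the gene. The Fur ewes of the luteal phase (7.97 to 46.1 CPM) all lay above the Suffolk ewes (0.451 to 4.43 CPM), and the share of all genes so separated was not counted.

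In the natural follicular phase, CLGN in Fur ranged from 1.98 to 11.9 CPM with a median of 7.94 CPM. In NWS it ranged from 3.02 to 14.5 CPM with a median of 5.77 CPM. In Belclare it ranged from 0.533 to 4.57 CPM with a median of 1.63 CPM. Both Norwegian breeds thus lay mostly above Belclare, with some overlap. Suffolk ewes ranged from 0.140 to 5.54 CPM with a median of 0.759 CPM, and 2 of the 8, at 3.05 and 5.54 CPM, lay well above the other 6, which did not exceed 1.04 CPM. These 2 ewes, replicates 7 and 6, also had the highest ACTG2 (1895 and 848 CPM) and DES (4194 and 2538 CPM) levels of their group, and the part of smooth muscle in their CLGN levels was not tested.

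CLGN was higher in Fur than in Suffolk by 2.33 on the log2 scale (SE 0.59, edgeR adjusted p = 0.0132), in a comparison in which 9.62% of all genes tested were called. It was lower in Belclare than in Fur (log2 fold change -2.00, SE 0.40, edgeR adjusted p = 0.000566), where 15.7% of genes were called. It was also lower in Belclare than in NWS (-1.89, SE 0.39, edgeR adjusted p = 0.00315), where 13% were called. NWS exceeded Suffolk by 2.22 (SE 0.59), which did not pass (edgeR adjusted p = 0.0634), in a comparison that called 0.993% of genes. Without Suffolk replicate 6 this difference was 2.91 (edgeR adjusted p = 0.0075), and without Suffolk replicate 7 it was 2.46 (edgeR adjusted p = 0.0412). Within each country the test found no difference. NWS and Fur differed by -0.13 (95% interval -0.85 to 0.60, edgeR adjusted p = 0.903), where 0.0338% of genes were called. Belclare and Suffolk differed by 0.33 (95% interval -0.94 to 1.59, edgeR adjusted p = 0.881). That comparison called 0 genes (0%) with edgeR, against 1443 at an unadjusted p below 0.05 and 15 with DESeq2. Both intervals include a change of 1.5-fold, so equal levels are not shown. In the order of medians, Fur and NWS thus did not differ by the test, NWS and Belclare did, and Belclare and Suffolk did not.

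In the synchronised luteal phase the highest CLGN levels of the series were found. Fur ewes ranged from 7.97 to 46.1 CPM with a median of 10.8 CPM (n = 9). NWS ranged from 2.31 to 10.8 CPM with a median of 4.94 CPM, and Belclare from 0.582 to 10.2 CPM with a median of 4.52 CPM. Suffolk ranged from 0.451 to 4.43 CPM with a median of 1.65 CPM. Fur and Suffolk did not overlap, the 1 comparison of 17 in which 2 groups were fully apart for CLGN. The share of all genes fully apart between these groups was not counted.

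CLGN in Fur exceeded that in Suffolk by 3.02 on the log2 scale (SE 0.43, edgeR adjusted p = 0.000236), with 13.8% of genes called, and by 2.65 to 3.24 with any 1 ewe left out. NWS exceeded Suffolk by 1.55 (SE 0.42, edgeR adjusted p = 0.0289), with 4.35% called, although without NWS replicate 5 it was 1.35 (edgeR adjusted p = 0.0585). Belclare was below Fur (-1.66, SE 0.40, edgeR adjusted p = 0.00345), with 16.3% called, a call that was lost when a marker level entered the fit, as given with the smooth muscle markers. Neighbours in the order of medians did not differ by the test. NWS was below Fur by -1.49 (95% interval -2.29 to -0.68), which did not pass (edgeR adjusted p = 0.227) in a comparison that called 0.0405% of genes. DESeq2 called that difference (adjusted p = 0.0287). Belclare and NWS differed by -0.17 (95% interval -1.01 to 0.66, edgeR adjusted p = 0.773), with 11.6% called. Belclare exceeded Suffolk by 1.36 (95% interval 0.45 to 2.27, edgeR adjusted p = 0.0783), with 2.43% called. That last difference passed with DESeq2 (adjusted p = 0.0291) and without Belclare replicate 7, the lowest Belclare ewe, at 1.5 (edgeR adjusted p = 0.0286).

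Smooth muscle markers had higher medians in the Norwegian groups, as CLGN did, although not every comparison called them. The study listed ACTG2, DES and ACTC1 among its genes lowest in Suffolk against Fur or NWS, in the synchronised follicular phase. Marker names of every kind come mostly from the study's genes that differed between Suffolk and Fur in that phase. The medians below include ewes of that phase, so neither the muscle nor the epithelial pattern is independent evidence of a breed difference. Summed marker levels in this paragraph are CPM without the TMM scaling, unlike the levels of single genes. The summed level of ACTG2, DES and ACTC1 had medians of 201 to 546 CPM in the Belclare groups, 277 to 622 CPM in Suffolk, 2621 to 4901 CPM in Fur and 2553 to 5629 CPM in NWS. In the natural follicular phase all 3 markers were lower in Belclare than in Fur and in NWS, beside 15.7% and 13% of all genes called. In the luteal phase all 3 were higher in Fur than in Suffolk (13.8% called) and lower in Belclare than in Fur (16.3%). There 2 of 3 were higher in NWS than in Suffolk (4.35%). Another 2 of 3 were lower in Belclare than in NWS (11.6%), where CLGN did not pass. In the natural follicular phase 0 of 3 passed in Fur against Suffolk (9.62%), where CLGN passed, and 0 of 3 in NWS against Suffolk (0.993%). The markers' median log2 fold changes there were still 1.59 and 2.01, so equal levels are not shown. Epithelial markers went the other way. Summed CDH1, CLDN3, CLDN4, CLDN7, ST14, SPINT1, LSR and ELMO3 had medians of 1413 to 1784 CPM in the Irish groups and 774 to 1015 CPM in the Norwegian ones. With the mean smooth muscle level of each ewe in the fit, CLGN passed in 3 of 17 comparisons, and likewise with the mean epithelial level. Fur against Suffolk in the luteal phase was among the calls both times, at 2.22 (edgeR adjusted p = 0.0111) and 2.36 (edgeR adjusted p = 0.00531). In the natural follicular phase Fur against Suffolk became 1.75 (edgeR adjusted p = 0.137) with the smooth muscle level and 1.33 (edgeR adjusted p = 0.542) with the epithelial level. Belclare against NWS, at -1.89 without either level, became -1.83 (edgeR adjusted p = 0.168) and -1.85 (edgeR adjusted p = 0.671). That difference hardly moved while its call was lost. In the luteal phase Belclare against Fur became -0.85 with either level (edgeR adjusted p = 0.246 and 0.282). Over all alternative fits, these among them, the lowest count of genes called in natural follicular Belclare against NWS was 0, against 1920 as reported. It was 6 against 1425 in natural follicular Fur against Suffolk. In the luteal phase it was 678 against 2409 in Belclare against Fur, and 1331 against 2050 in Fur against Suffolk. The part of muscle or epithelium in the lost CLGN calls was not tested.

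The luteal change was examined in the Norwegian breeds, since the choice of the genes used no ewe of theirs. Fur had less CLGN in the synchronised follicular phase (median 4.77 CPM, 1.08 to 9.22) than in the luteal phase (median 10.8 CPM). The groups overlapped in part, and the log2 difference was -1.65 (SE 0.40, edgeR adjusted p = 0.00304) in a comparison that called 23.8% of genes. Leaving out any 1 ewe kept this call, with values from -1.82 to -1.28. NWS differed by -0.54 (95% interval -1.26 to 0.17, edgeR adjusted p = 0.209), with 22.1% of genes called. Smooth muscle markers were higher in the follicular phase in both breeds, in 2 of 3 markers in Fur and 3 of 3 in NWS, opposite to CLGN. The difference between the breeds in this change was 1.11 (SE 0.54) and did not pass (edgeR adjusted p = 1). That test called 0 genes (0%) with edgeR and with DESeq2, and 491 at an unadjusted p below 0.05.

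As a description, the Irish breeds moved the same way, with log2 differences of -0.99 (SE 0.43) in Belclare and -1.37 (SE 0.39) in Suffolk for the follicular against the luteal phase. Their follicular ewes were those used to choose the genes.

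Synchronised and natural cycles did not differ in CLGN by the test. Synchronised minus natural follicular ewes gave -0.56 in Fur (95% interval -1.34 to 0.23, edgeR adjusted p = 0.321), where 4.92% of genes were called. In NWS it was -0.79 (95% interval -1.49 to -0.08, edgeR adjusted p = 0.337), where 0.0135% were called. NWS against Fur in the synchronised follicular phase gave -0.39 for CLGN (95% interval -1.13 to 0.36, edgeR adjusted p = 0.864), with 0.00675% of genes called. A change in that difference between the synchronised and natural cycles did not pass either (interaction -0.25, SE 0.52, edgeR adjusted p = 0.97). That test called 0% of genes, 0 with DESeq2 as well, and 529 at an unadjusted p below 0.05.

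**Figure D2:**
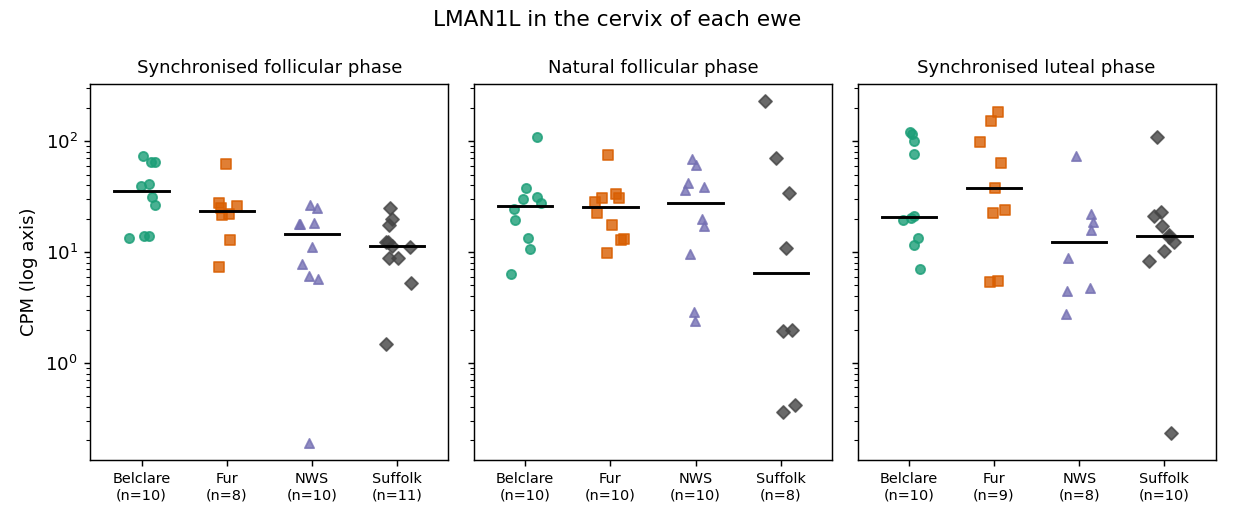
LMAN1L level of each ewe in CPM (log axis) by breed in the 3 states, with points for ewes and bars for medians. Single ewes stood far from their group, at 0.191 CPM in NWS of the synchronised follicular phase, at 232 CPM in Suffolk of the natural follicular phase and at 0.233 CPM in Suffolk of the luteal phase.

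LMAN1L varied between ewes of 1 breed and state more than nearly any other gene. Its standard deviation within groups was 1.67 on the log2 scale, larger than that of 99% of the 14811 genes tested, whose median was 0.37. CLGN had 0.95, larger than 92.8% of genes. Over the 75 ewes outside the synchronised follicular phase, the 8 groups accounted for 60.8% of the variance of log2 CPM for CLGN and for 14.9% for LMAN1L, against a median of 32.8% over all genes.

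In the natural follicular phase LMAN1L in Suffolk ran from 0.362 to 232 CPM, with a median of 6.44 CPM. Replicate 5 held 232 CPM and the next ewe 70.1 CPM, while 4 of the 8 ewes stayed below 2 CPM. Belclare ranged from 6.38 to 108 CPM with a median of 26.2 CPM. Suffolk thus spanned the whole range of the other breeds. Fur ranged from 9.86 to 74.7 CPM with a median of 25.4 CPM, and NWS from 2.39 to 69.2 CPM with a median of 27.9 CPM. All 4 breeds overlapped. The order by medians was NWS, Belclare, Fur, Suffolk, but by means Suffolk came first (44.0 ± 79.8 CPM, SD, n = 8).

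None of the 6 breed comparisons of that state passed for LMAN1L. Belclare against Suffolk was -0.51 (95% interval -2.44 to 1.41, edgeR adjusted p = 0.877), and without Suffolk replicate 5 it was 0.86 (edgeR adjusted p = 0.655). Fur against Suffolk was -0.70 (95% interval -2.54 to 1.15) and NWS against Suffolk -0.56 (95% interval -2.55 to 1.43), and both also turned positive without that ewe, at 0.66 and 0.80. Belclare and Fur differed by 0.19 (95% interval -0.71 to 1.08), Belclare and NWS by 0.06 (-1.07 to 1.18), and NWS and Fur by 0.12 (-0.91 to 1.15). Each of these intervals includes a change of 1.5-fold.

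In the luteal phase LMAN1L in Belclare split into 6 ewes from 7.03 to 21.1 CPM and 4 from 76.0 to 120 CPM. Fur ranged from 5.42 to 184 CPM with a median of 37.7 CPM. NWS ranged from 2.78 to 74.1 CPM with a median of 12.3 CPM, and its highest ewe, replicate 8, was far above the next at 22.2 CPM. Suffolk ranged from 0.233 to 110 CPM with a median of 14.0 CPM, and 8 of its 10 ewes lay between 8.39 and 23.2 CPM. The groups again overlapped throughout.

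Fur exceeded Suffolk in LMAN1L by 1.52 (95% interval 0.02 to 3.03, edgeR adjusted p = 0.114). Without Suffolk replicate 1, the ewe at 110 CPM, the difference was 2.30 and passed (edgeR adjusted p = 0.0172). Belclare exceeded Suffolk by 1.14 (95% interval -0.26 to 2.53, edgeR adjusted p = 0.294). This was the direction of the contrast that chose the gene, in other ewes, and it did not pass. Belclare against NWS was 1.41 (95% interval -0.05 to 2.87, edgeR adjusted p = 0.14) and NWS against Fur -1.80 (-3.39 to -0.21, edgeR adjusted p = 0.392). Belclare against Fur (-0.39, 95% interval -1.80 to 1.03) and NWS against Suffolk (-0.26, -1.77 to 1.25) were near 0 with wide intervals.

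For LMAN1L the phases differed in Fur by -1.37 for follicular against luteal (95% interval -2.69 to -0.05, edgeR adjusted p = 0.0844). DESeq2 called it (adjusted p = 0.0425), as did edgeR without Fur follicular replicate 3, luteal replicate 6 or luteal replicate 8. In NWS the phases differed by -0.50 (-1.82 to 0.83, edgeR adjusted p = 0.55), and by 0.31 without luteal replicate 8. Synchronised against natural follicular ewes gave -0.10 in Fur (-0.92 to 0.71) and -1.12 in NWS (-2.32 to 0.09, edgeR adjusted p = 0.417). NWS against Fur in the synchronised follicular phase gave -0.92 (-1.97 to 0.12, edgeR adjusted p = 0.758).

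**Figure D3:**
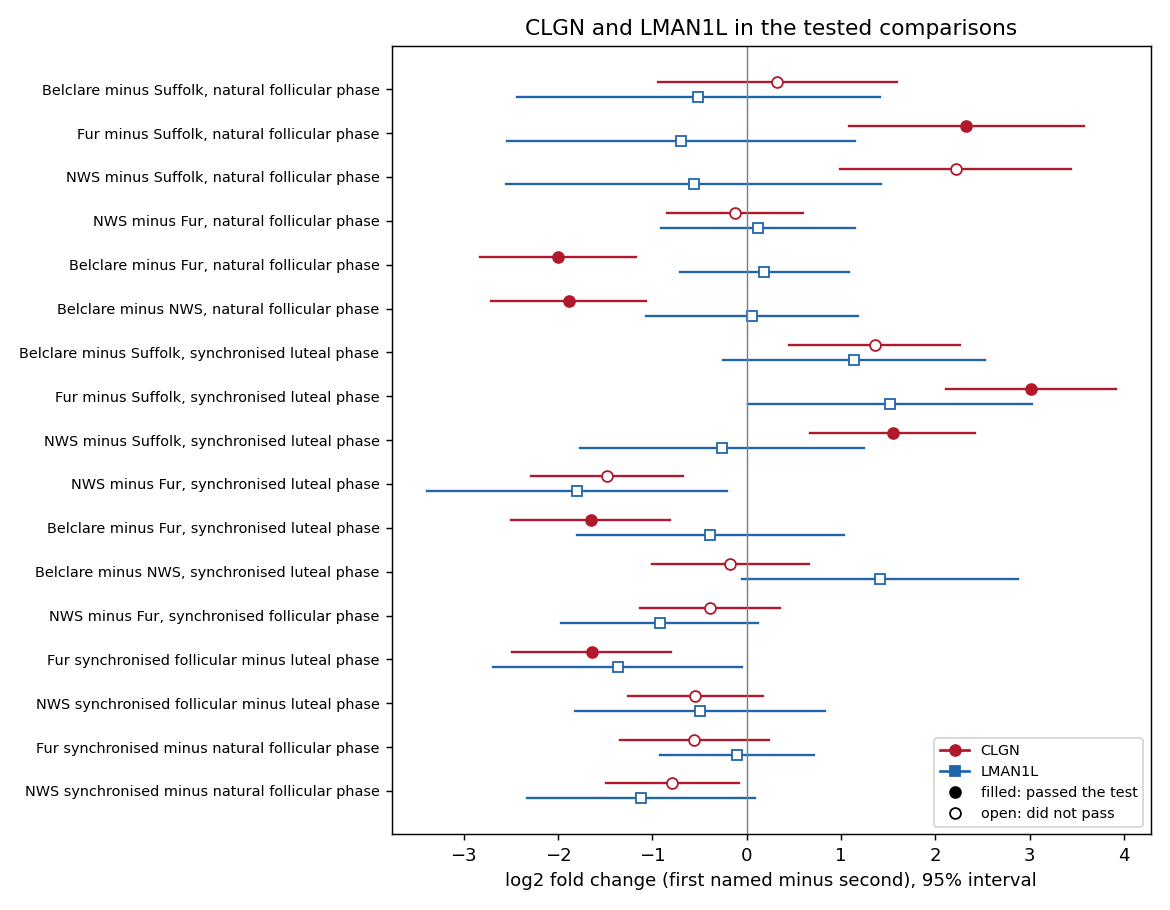
Log2 fold changes of CLGN (circles) and LMAN1L (squares) with 95% intervals in the 17 comparisons outside the contrast that chose the genes. Filled symbols passed edgeR's test over all genes and open ones did not. CLGN has 7 filled symbols and LMAN1L none, and the intervals, which are not adjusted for the number of genes, are wider for LMAN1L.

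The Belclare and Suffolk difference was compared between the natural follicular and the luteal phase in 1 fit. The interaction was -1.01 for CLGN (SE 0.75, edgeR adjusted p = 0.654) and -1.64 for LMAN1L (SE 1.16, edgeR adjusted p = 0.637). This test called 0 genes (0%) with edgeR, 1617 at an unadjusted p below 0.05 and 45 with DESeq2. For LMAN1L the interactions of NWS against Fur were 0.87 (SE 0.92) over the phases and -1.02 (SE 0.73) over the cycles, and neither passed.

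The genes were next compared ewe by ewe, within each group, over 12 groups. Pearson's r of log2 CPM between CLGN and LMAN1L ranged from -0.43 to 0.79 with a median of 0.01 and was positive in 6 groups. In no group did it pass a permutation test after Benjamini-Hochberg adjustment over the 12 groups, with 0.249 the lowest adjusted value. The highest r was in Suffolk of the natural follicular phase (r = 0.79, exact permutation p = 0.0207, adjusted 0.249, n = 8). There Spearman's rho was 0.74 (exact permutation p = 0.0458, adjusted 0.503), and r was 0.81 without the 2 ewes farthest from the median of CLGN. The lowest was in NWS of the same state (r = -0.43, permutation p = 0.217, adjusted 0.79, n = 10). Its rho was -0.48 (permutation p = 0.168, adjusted 0.503), and r was -0.69 without its 2 farthest ewes. The 4 Suffolk ewes below 2 CPM of LMAN1L were also the 4 lowest for CLGN in that group.

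**Figure D4:**
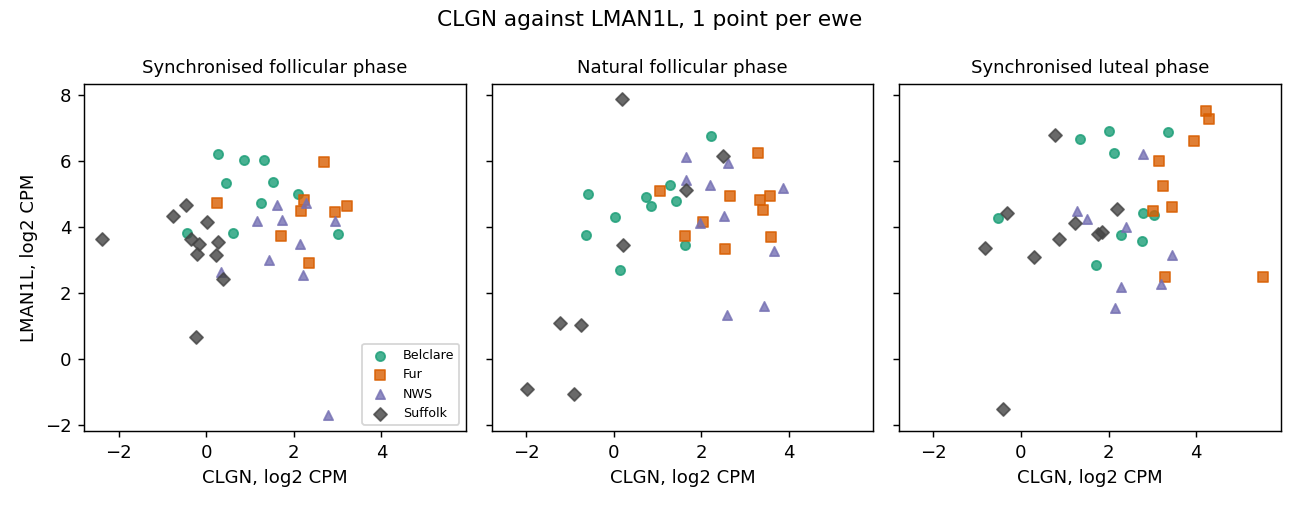
LMAN1L against CLGN, both in log2 CPM, with 1 point per ewe and 1 panel per state, coloured by breed. Norwegian ewes lie mostly at higher CLGN than Suffolk ewes, all breeds overlap along the LMAN1L axis, and within a breed r ran from -0.43 to 0.79 over the 12 groups.

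Other genes followed each of them more closely than they followed each other. Over all 114 ewes, after the mean of each group was subtracted, CLGN and LMAN1L had r = 0.18. Of the 14811 genes, ENSOARG00000012220, which has no name in the tables used, was most like CLGN (r = 0.64). Among the 1352 identifiers with a name, YPEL3 (r = 0.44), ASB2 (r = 0.41) and SLC39A4 (r = 0.41) came closest, at places 152, 267 and 273 of all genes. ASB2 is part of a ubiquitin ligase that acts on filamins in muscle and blood cells, and SLC39A4 is a zinc importer of epithelia. ENSOARG00000019048, also unnamed, was most like LMAN1L (r = 0.79). Of named genes, C16orf89 (r = 0.62), STARD10, a lipid transfer protein (r = 0.57), and SEL1L3 (r = 0.56) came next, at places 26, 48 and 51. All of these values share the libraries of the same ewes and are a description only.

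Marker lists were set beside both genes in the same residual values, with no test of the difference between the genes. CLGN had r = 0.27 with the mean of 3 smooth muscle markers, -0.23 with 8 epithelial, -0.40 with 4 mucus-secreting, 0.16 with 6 ciliated, -0.22 with 5 fibroblast, -0.35 with 5 leukocyte and -0.44 with 6 B and plasma cell identifiers. For LMAN1L the same values were 0.01, 0.08, 0.09, 0.22, -0.16, -0.11 and 0.15. Neither gene is a marker of these cells, and which cells of the cervix held their RNA was not tested.

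Other genes were described with a list of 82 genes in 4 parts, of which 41 had a named identifier and all 41 were tested. Of the 41, 14 belong to ER folding and stress, 11 to transport between ER and Golgi, and 11 to glycan processing. The other 5 are genes of sperm and egg binding, which are not secretory pathway machinery, and they are included in each count out of 41. Calnexin, calreticulin and LMAN1 have no named identifier here and were not analysed. The names come mostly from the study's table of genes that differed between Suffolk and Fur in the synchronised follicular phase, so the list is not an even sample of the pathway and its counts are not independent evidence of a breed difference. CLGN and LMAN1L are not counted in it. Between the breeds of 1 country, 0 of 41 passed in NWS against Fur of the natural follicular phase, beside 0.0338% of all genes, and in Belclare against Suffolk of that phase, beside 0%. In the luteal phase 1 of 41 (QSOX1, an enzyme that forms disulphide bonds) was lower in Belclare than in Suffolk, which is near the 2.43% of all genes.

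Between the countries, members of the list that passed went mostly opposite to CLGN. Markers of secretory cells that passed went the way most of the list did, but not every comparison called them. In Belclare against Fur of the natural follicular phase, 4 of 4 mucus-secreting and 8 of 8 epithelial markers were higher in Belclare, beside 15.7% of all genes called. In Fur against Suffolk of the luteal phase, 6 of 6 B and plasma cell markers (median log2 fold change -1.70) and 3 of 4 mucus-secreting markers were lower in Fur, beside 13.8%. In NWS against Suffolk of the natural follicular phase, 0 of 4 mucus-secreting, 0 of 6 B and plasma cell and 3 of 8 epithelial markers passed, beside 0.993%. In Belclare against NWS of that phase, 4 of 4 mucus-secreting but 0 of 6 B and plasma cell markers passed, beside 13%. The names of these markers have the same source as the list, so their counts are not independent evidence either. The part of these cells in the list's counts was not tested. In the natural follicular phase 9 of 41 were higher and 0 lower in Belclare than in Fur, beside the 15.7% called over all genes. The list's median log2 fold change was 0.38, against 0.01 for all genes. Among them were ERN1, an ER stress sensor (0.80, SE 0.12, edgeR adjusted p = 4.33e-05), and TMEM129, a ubiquitin ligase of ER degradation (0.87, SE 0.12). ERGIC1, a membrane protein of the compartment between ER and Golgi, rose by 0.77 (SE 0.11), and TRAPPC12, of a vesicle tethering complex, by 0.73 (SE 0.08). ERGIC1 was 197 ± 33.8 CPM in Belclare and 116 ± 18.8 CPM in Fur (SD, n = 10 each). Its range was 146 to 261 CPM in Belclare and 93.4 to 143 CPM in Fur.

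Against Suffolk, Fur had 7 of 41 lower and 0 higher in the natural follicular phase, beside 9.62% of all genes, and 11 lower and 1 higher in the luteal phase, beside 13.8%. CREB3L3, a transcription factor held in the ER membrane, was lower in Fur by -1.99 (SE 0.55, edgeR adjusted p = 0.0193) and -2.26 (SE 0.35, edgeR adjusted p = 0.00033). TXNDC5, a disulphide isomerase, was lower by -0.72 (SE 0.19) and -0.71 (SE 0.13). The 1 gene higher in luteal Fur was GALNT15, which starts O-linked sugar chains (1.46, SE 0.51, edgeR adjusted p = 0.0372). It had 0.999 to 27.4 CPM with a median of 2.59 CPM in Fur and 0.990 to 4.08 CPM with a median of 1.84 CPM in Suffolk, so the medians lay closer than the means (6.14 and 2.20 CPM). The fold without the highest Fur ewe was not computed. Belclare and NWS differed in 8 of 41 in the natural follicular phase, all higher in Belclare, beside 13% of all genes, and in 10 in the luteal phase, 6 higher and 4 lower, beside 11.6%. In NWS against Suffolk, 1 of 41 passed (lower, ERGIC1) in the natural follicular phase, beside 0.993% of all genes. In the luteal phase 3 passed, beside 4.35%, of which 2 were lower and 1, the sperm head gene ZPBP, was higher. Belclare against Fur in the luteal phase had 9 higher and 2 lower, beside 16.3% of all genes, with ERGIC1 (0.93, SE 0.15) and TRAPPC12 (0.92, SE 0.10) again higher.

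Over the phases, 15 of 41 passed in Fur and 11 of 41 in NWS, beside 23.8% and 22.1% of all genes. In the follicular phase 8 of these were higher and 7 lower in Fur, and 6 higher and 5 lower in NWS. TMED3, a cargo adaptor of the early secretory route, was higher in the follicular phase in both, by 1.36 in Fur (SE 0.15, edgeR adjusted p = 2.54e-06) and 1.05 in NWS (SE 0.18, edgeR adjusted p = 0.000366). Fur ewes had 152 to 352 CPM of TMED3 in the follicular and 65.8 to 128 CPM in the luteal phase. TXNDC5 (0.99 in Fur and 0.79 in NWS) and ST6GAL2, a Golgi sialyltransferase (1.81 and 1.48), were also higher in the follicular phase. GALNT15 was lower, by -2.43 in Fur and -1.78 in NWS. ST6GAL2 was itself among the genes that the study picked in Belclare against Suffolk.

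Genes of sperm and egg binding that passed over the phases went the way CLGN did in Fur. Of 5 tested, 3 in Fur and 2 in NWS were lower in the follicular phase, and none was higher. Over all genes, 23.8% in Fur and 22.1% in NWS were called in either direction, and 5 genes are too few to set apart from these shares. CLGN itself did not pass in NWS. ZPBP, a protein of the sperm head that binds the zona pellucida, had 0.281 to 1.42 CPM in follicular and 0.934 to 2.83 CPM in luteal Fur. It was lower by -1.08 in Fur (SE 0.33, edgeR adjusted p = 0.0138) and -1.07 in NWS (SE 0.35, edgeR adjusted p = 0.0204). ADAM7, of the ADAM family to which clients of calmegin in sperm belong, had 0.227 to 36.9 CPM with a median of 0.458 CPM in follicular Fur. In luteal Fur it had 3.38 to 254 CPM with a median of 35.5 CPM (log2 difference -3.68, SE 1.10, edgeR adjusted p = 0.0114). In NWS it had medians of 0.445 and 28.9 CPM (-6.16, SE 0.85, edgeR adjusted p = 7.79e-05). ADAM7 was itself among the genes that the study picked in Belclare against Suffolk. TMEM95, a sperm membrane protein, was the other member lower in Fur (-0.70, SE 0.24, edgeR adjusted p = 0.0255).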

How the data were processed

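Members and lists were chosen with earlier results of these data known. RNA of 115 cervical samples was sequenced in pairs from a stranded polyA kit. The authors trimmed reads, aligned them to Oar_v3.1 with STAR (2.6.1b in the submitters' processing notes), allowing 2 mismatches, retained read pairs with 1 position, and assigned them with featureCounts (Subread 1.6.3) to Ensembl protein-coding genes. They deposited raw counts for 27054 genes per ewe. Reads from alleles far from the reference are lost, and breeds may differ in this. Groups followed breed, cycle and phase in the labels. The 1 ewe whose labels disagree was left out, leaving 114. Replicates are taken as separate ewes, and no 2 libraries of a group agreed within counting noise (lowest chi-square per degree of freedom 16.4 over 490 pairs).

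From the deposited counts, 14811 genes reached 1 CPM in 10 or more of the 39 follicular ewes with a synchronised cycle and were kept, and edgeR 4.0.16 (R 4.3.3; TMM, quasi-likelihood test) was fitted to the groups compared, with Benjamini-Hochberg adjustment over all genes. Log2 CPM used a prior count of 2. Fits of some comparisons were run on simulated counts with the same dispersion for every gene. Those runs do not gauge the fits for genes as variable as CLGN and LMAN1L. DESeq2 1.42.0, its size factors, no filter, 1 fit of all ewes, a replicate block and marker covariates were alternatives. Leaving out each ewe in 7 comparisons between an Irish and a Norwegian breed, and the value without 1 Belclare ewe, were chosen after seeing the data. Text names CLGN and LMAN1L, for each the 3 named genes and the 1 gene of all with the highest residual r, and at most 4 called members per list by size. Only 1352 identifiers have names, from the study's supplementary tables. No sequence or coordinate of this build was used here.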

Additional observations from a re-analysis of the deposited data

Results flagged for a closer look

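Within groups of 4 to 10 ewes, 22 sets of values were examined for a ewe far from the others by Dixon's criterion. Its rate of about 1 in 20 holds for normally distributed values, and it was applied to CPM, not to log2 CPM. The values here had long tails to high levels, so the number of ewes flagged cannot be set against that rate. For CLGN, Belclare replicate 2 of the synchronised follicular phase (7.90 CPM, next 4.14 CPM) and Fur replicate 8 of the luteal phase (46.1 CPM, next 19.7 CPM) stood out. The Fur ewe also had the highest ACTG2 (2249 CPM) and DES (7161 CPM, next 3313 CPM) levels of its group, and the part of smooth muscle in its CLGN level was not tested. For LMAN1L it was 6 ewes, each the highest of its group. These were Belclare replicate 7 (108 CPM, next 38.1), Fur replicate 6 (74.7 CPM, next 33.5) and Suffolk replicate 5 (232 CPM, next 70.1) of the natural follicular phase. The others were Fur replicate 3 of the synchronised follicular phase (62.2 CPM, next 28.0), and NWS replicate 8 (74.1 CPM, next 22.2) and Suffolk replicate 1 (110.0 CPM, next 23.2) of the luteal phase. Fur luteal replicate 8, highest for CLGN, was the lowest of its group for LMAN1L (5.42 CPM).

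The Suffolk ewe left out of every comparison had 6.17 CPM of CLGN (107 counts), above the highest Suffolk ewe of any state at 5.54 CPM. It is a single library whose title and other labels name different cycles and phases.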

How the results depend on the processing

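CLGN kept its direction under every alternative in all 20 tests, and Fur against Suffolk in the luteal phase and the Fur phase difference passed under each. Calls lost for CLGN were, with the smooth muscle covariate, Fur against Suffolk (1.75) and Belclare against NWS (-1.83) in the natural follicular phase and NWS against Suffolk (1.99) and Belclare against Fur (-0.85) in the luteal phase. With the epithelium covariate they were Fur against Suffolk (1.33), Belclare against Fur (-1.82) and Belclare against NWS (-1.85) in the natural follicular phase and luteal Belclare against Fur (-0.85). Calls gained were NWS against Suffolk in the natural follicular phase (DESeq2 2.22, all ewes in 1 fit 2.24), luteal Belclare against Suffolk (1.37 in both) and, with DESeq2, luteal NWS against Fur (-1.49) and the LMAN1L phase difference in Fur (-1.38). The cause was not tested.

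LMAN1L turned direction, without passing, in the natural follicular phase with the smooth muscle covariate (Fur against Suffolk 0.22, Belclare against Fur -0.48) and the epithelium covariate (Belclare against Fur -0.65). It did so in luteal NWS against Suffolk (0.10 and 0.32) and in the NWS phase difference (1.17 and 0.38) with the same covariates.

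In no comparison did every pair of same-numbered ewes correlate over 0.1. The most were 5 of 8 pairs (median r 0.14, Fur synchronised against natural) and 5 of 9 (median r 0.16, luteal Fur against Suffolk, where 3 ewes correlated best with their own number), so the numbers were not taken to pair ewes. The replicate block lost 1 CLGN call, luteal NWS against Suffolk (1.74), and turned LMAN1L in the natural follicular phase for Belclare (1.65), Fur (1.70) and NWS (1.78) against Suffolk, NWS against Fur (-0.065) and Belclare against Fur (-0.018), and in the NWS phase difference (0.083).

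Leaving out 1 ewe at a time was run for 12 of the 17 comparisons, and not for NWS against Fur of the natural follicular and luteal phases, luteal Belclare against NWS and synchronised against natural cycles. It gave CLGN 1.20 to 1.58 for luteal Belclare against Suffolk, 1.35 to 1.77 for luteal NWS against Suffolk and 2.03 to 2.91 for NWS against Suffolk of the natural follicular phase. LMAN1L in that phase ran from -0.98 to 0.86 (Belclare against Suffolk), -1.0 to 0.66 (Fur against Suffolk), -0.79 to 0.80 (NWS against Suffolk), -0.40 to 0.29 (Belclare against NWS) and -0.29 to 0.50 (Belclare against Fur). It ran from 1.16 to 2.30 for luteal Fur against Suffolk, -1.06 to 0.51 for luteal NWS against Suffolk, -1.69 to -1.0 for the Fur and -0.66 to 0.31 for the NWS phase difference. Suffolk replicate 5 and Belclare replicate 7 of the natural, and Suffolk replicate 1 and NWS replicate 8 of the luteal phase turned these signs, and 4 single NWS ewes that of Belclare against NWS.

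Counts of genes called moved by over 1.5 times in 13 of 20 tests with the epithelium covariate and in fewer with each other alternative. Over the alternatives Fur against Suffolk of the natural follicular phase called 6 to 1686 genes (1425 as reported), NWS against Suffolk 0 to 1328 (147), Belclare against Fur 11 to 2840 (2329), Belclare against NWS 0 to 2193 (1920), Belclare against Suffolk 0 to 40 (0) and NWS against Fur 0 to 99 (5). In the luteal phase the same 6 called 1331 to 2405 (2050), 18 to 867 (645), 678 to 2904 (2409), 54 to 1994 (1724), 0 to 990 (360) and 1 to 73 (6). The NWS phase difference called 136 to 3757 (3267), Fur synchronised against natural 378 to 864 (729), NWS likewise 0 to 91 (2), and NWS against Fur in the synchronised follicular phase 1 to 31 (1). The Belclare and Suffolk interaction called 0 to 141 (0). Depth limits low CLGN values, since 3 counts are 0.173 CPM on average and its lowest ewe had 1 count.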

Other observations

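The Suffolk ewe left out of the comparisons had 13.7 CPM of LMAN1L (238 counts), within the range of every Suffolk group.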
